A study of Mus musculus with 9 samples.

Results

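Collagen genes were described by chain and by collagen type in 3 mouse tissues, white fat, brown fat and the soleus. The members were all genes of the RNA-seq matrix whose symbol reads Col, a number, a and a number. Membership thus rests on names, but collagens were chosen as a set with earlier results of these data known. The naming rule gave 40 genes of 17753, which make the chains of 23 collagen types. The tissues, with the soleus as a postural calf muscle, were sampled from male wild-type mice of strain C57BL/6J at an age of 3 months, with 3 libraries of each tissue. All 3 groups share that strain, sex and age, and the labels give no treatment or engineered allele. The labels speak of 3 mice but do not tie libraries to animals, so p-values measure the spread between these libraries. The depot of the white fat is not given in the sources used here. Levels are in FPKM, fragments per length of transcript and per mapped total of the library, so levels of different genes are compared per length. Values in a row are for replicates 1, 2 and 3, and means are given ± SD over the 3 libraries of a tissue.

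Collagens are the main structural proteins of the extracellular matrix, and each is built from chains wound into a triple helix, the chains being numbered within a type. Fibrillar collagens such as types I, III and V are secreted with propeptides, trimmed outside the cell and packed into fibrils that carry tension. Type IV collagen forms the mesh of basement membranes, which wrap each adipocyte, muscle fibre and capillary, and type VI collagen forms beaded filaments beside them and is the collagen most often discussed in the matrix of fat. The fibril-associated collagens with interrupted helices (FACIT) sit on fibril surfaces, the multiplexins XV and XVIII lie in or near basement membranes, and transmembrane collagens span the cell surface.

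Several collagen genes are placed so that their start sites lie close to each other, and such pairs encode chains whose levels are compared further on. In the RefSeq annotation of build GRCm38.p6, the starts of Col4a1 and Col4a2, the 2 common chains of type IV, lie 21 bases apart on chromosome 8 and are read in opposite directions, so their first exons overlap. The stretch chr8:11312801-11312830, written on the plus strand, is shown because it holds both starts, with each first transcribed base in capitals (Col4a2 at 11312805 on the plus strand, Col4a1 at 11312826 on the minus strand).
Col4a1 and Col4a2: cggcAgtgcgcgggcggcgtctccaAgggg
The strand of reads in that overlap cannot be told from these files. Col4a5 and Col4a6, minor chains of type IV, also stand head to head on chromosome X, with starts 1343 bases apart. Stretches before their starts are shown because these neighbours had different patterns over the tissues, with any CCAAT motif in capitals. Each ends before the outermost RefSeq start of its gene, so the last 49 bases before the start used here are left out for Col4a5 and the last 19 for Col4a6. In the whole window of 250 bases both genes had 1 GC box (GGGCGG), which lies at least partly in the bases left out. The stretches are chrX:141475169-141475369 on the plus strand for Col4a5 and chrX:141474096-141474326 on the minus strand for Col4a6.
Col4a5: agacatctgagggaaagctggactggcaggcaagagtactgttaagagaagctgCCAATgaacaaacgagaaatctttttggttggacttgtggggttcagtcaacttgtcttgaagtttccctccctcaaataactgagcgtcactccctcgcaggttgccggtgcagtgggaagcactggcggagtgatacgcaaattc
Col4a6: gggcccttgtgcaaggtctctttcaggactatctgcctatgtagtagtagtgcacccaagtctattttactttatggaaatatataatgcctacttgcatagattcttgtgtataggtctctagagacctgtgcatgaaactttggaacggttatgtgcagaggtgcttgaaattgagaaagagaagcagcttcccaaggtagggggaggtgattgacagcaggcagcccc
The 250 bases before the starts of Col1a2 (chr6:4505368-4505617, plus strand) and Col3a1 (chr1:45311288-45311537, plus strand) are shown as a pair of abundant fibrillar chains whose balance differed between tissues. Capitals mark matches, on either strand, to the TATA box (TATAAA), the CCAAT box (CCAAT) or the GC box (GGGCGG).
Col1a2: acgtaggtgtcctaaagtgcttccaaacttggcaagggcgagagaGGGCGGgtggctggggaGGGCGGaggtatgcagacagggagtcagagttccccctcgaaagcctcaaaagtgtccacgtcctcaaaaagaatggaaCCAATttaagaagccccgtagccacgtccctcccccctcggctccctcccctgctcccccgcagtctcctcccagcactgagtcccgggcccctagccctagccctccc
Col3a1: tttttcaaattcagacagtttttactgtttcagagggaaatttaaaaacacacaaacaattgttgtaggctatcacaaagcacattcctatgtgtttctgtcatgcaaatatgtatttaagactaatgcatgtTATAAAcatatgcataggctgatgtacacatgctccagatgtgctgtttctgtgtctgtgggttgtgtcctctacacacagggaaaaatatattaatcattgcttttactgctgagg
The Col1a2 stretch held 1 CCAAT motif and 2 GC boxes at a GC content of 62.0%, and the Col3a1 stretch held 1 TATAAA motif at a GC content of 35.2%. Promoter entries matched 32 of the 40 members, with 35 windows of 250 bases before a start, and each motif was counted on its own on both strands. TATAAA was in 5 of the 35 collagen windows (14.3%) and in 12.4% of all 32851 windows, and CCAAT was in 12 (34.3%) and in 33.8%. GGGCGG was in 20 (57.1%) and in 32.7% of all windows. A match is a description of the letters and not of a bound site.

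Read totals were not given. Judged by the spacing of low values, white fat replicate 2 was the shallowest library and white fat replicate 3, at 3.58 times its depth, the deepest. Between 8487 and 9305 genes reached 1 FPKM in a library, and summed FPKM ran from 213936 (white fat replicate 2) to 352502 (soleus replicate 2). The summed adipocyte markers ranged over 4944 to 5451 FPKM for white fat, 7717 to 8866 for brown fat and 35.9 to 166 for soleus. Skeletal muscle markers summed to 11400 to 14057 FPKM in soleus, although Acta1, Ckm and Mb, which a muscle should express, are listed at 0 there. They summed to 17.3 to 35.6 FPKM in white fat and 15.6 to 118 in brown fat.

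White fat had the highest collagen levels. Its mean was the highest of the 3 tissues for 23 of the 40 members, against 12 for soleus and 5 for brown fat. Means of 10 FPKM or more were reached by 14 members in white fat, 9 in brown fat and 9 in soleus, and means of 100 FPKM or more by 6 members, in white fat alone. Col3a1, the chain of the fibrillar type III, had the highest mean in white fat and the median rank 63 among all genes there, while in brown fat it ranked 638 and in soleus 514. In brown fat Col4a1 stood close to it at rank 709, and in soleus the type I chain Col1a2 ranked 714. At the other end, 15 members stayed under 1 FPKM in the mean of every tissue. The tests used genes that reached 1 FPKM in 3 or more libraries, which 24 of the 40 members passed, and 5 of these (Col4a6, Col6a5, Col6a6, Col22a1 and Col27a1) reached 1 FPKM in libraries of a single tissue and so had to differ from the others.

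**Figure D1:**
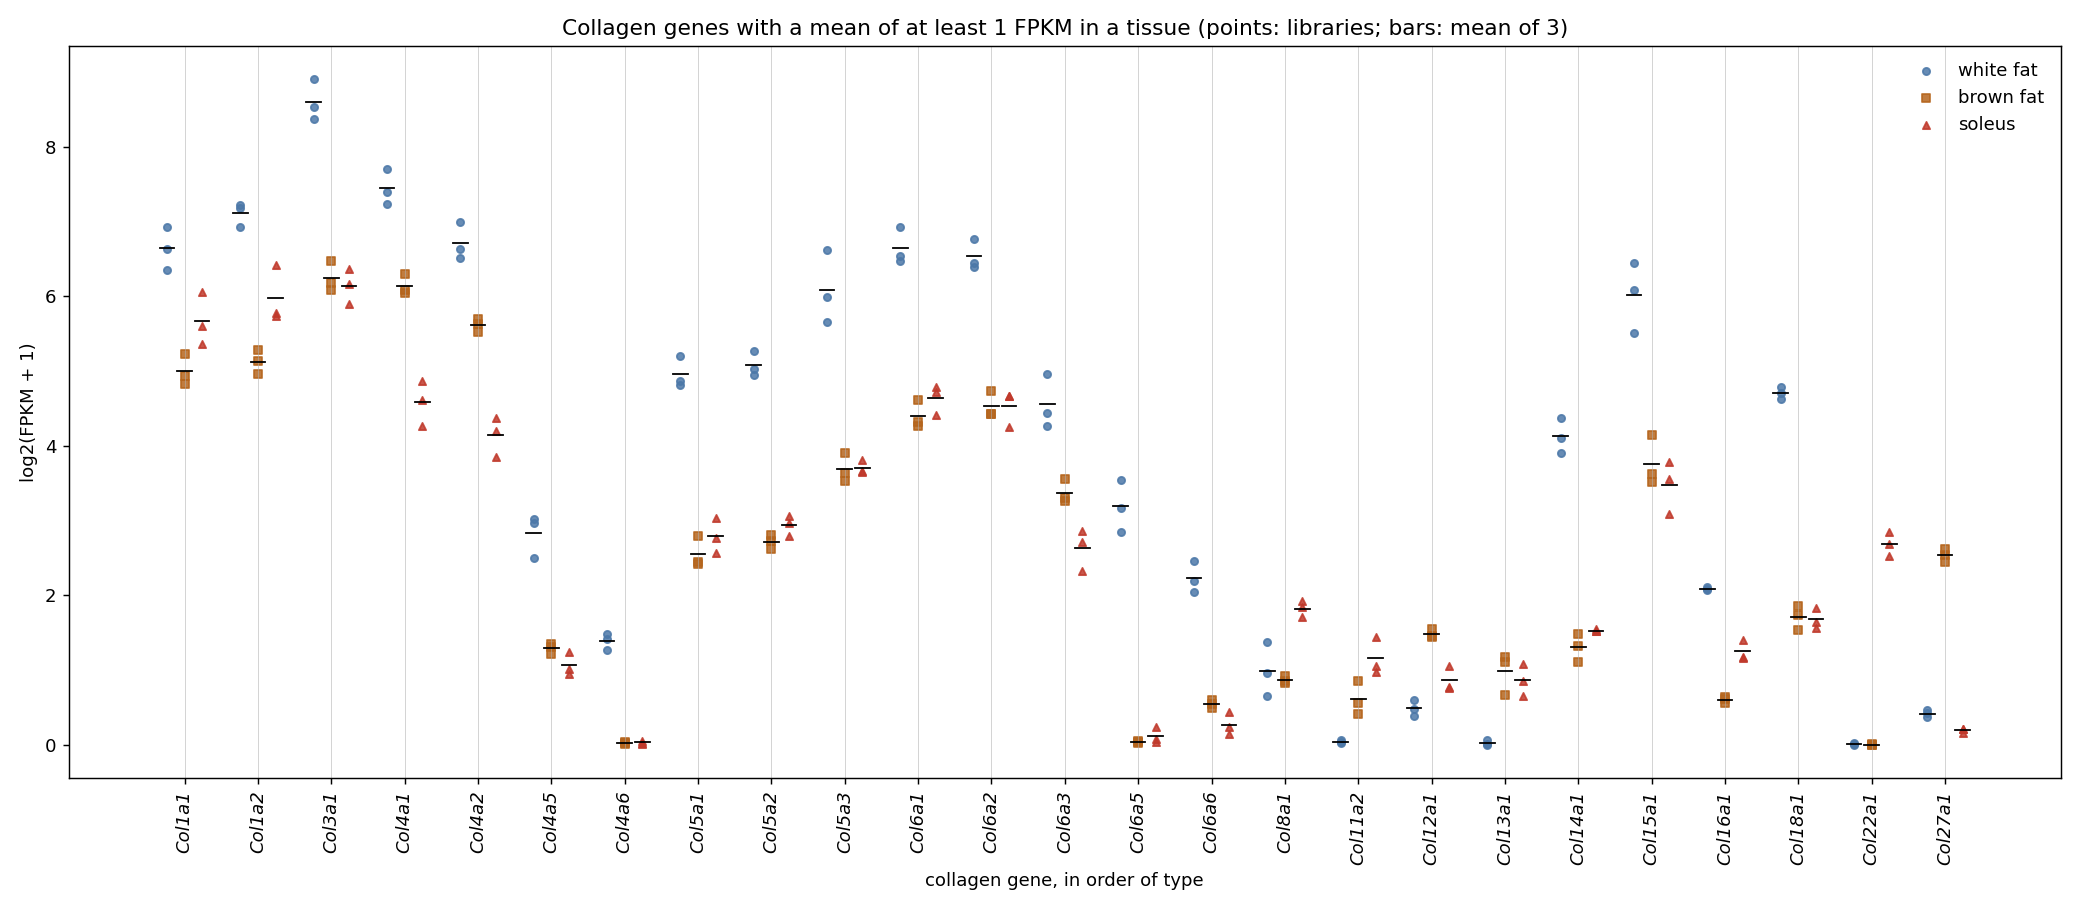
Levels of the 25 collagen genes whose mean reached 1 FPKM in a tissue, on the y axis as log2(FPKM + 1) and on the x axis by gene in order of type. Points are single libraries and bars the mean of 3. White fat points lie highest for most genes, and the mean was highest in brown fat for Col12a1, Col13a1 and Col27a1 and in soleus for Col8a1, Col11a2 and Col22a1.

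The major fibrillar chains were highest in white fat. Col3a1 was at 329, 478 and 369 FPKM in white fat, 87.7, 66.9 and 71.7 in brown fat, and 70.8, 58.8 and 81.1 in soleus. All white fat libraries lay above all others, and brown fat and soleus overlapped. The mean in white fat was 5.20 times that in brown fat. Col1a1 and Col1a2, the chains of type I collagen, the main collagen of tendon, skin and bone, followed another order. Col1a1 was at 81.0, 121 and 98.6 FPKM in white fat, 36.6, 27.4 and 29.5 in brown fat, and 65.5, 40.0 and 47.4 in soleus. Col1a2 was at 121, 149 and 144 FPKM in white fat, 37.9, 30.1 and 34.1 in brown fat, and 84.8, 52.5 and 54.0 in soleus. For both genes every soleus library lay above every brown fat library and below every white fat library, and soleus replicate 1 stood above the other soleus libraries. On the log2(FPKM + 1) scale, which makes changes of low values look smaller, brown fat minus soleus was -0.67 (SE 0.19, limma adjusted p = 0.0077) for Col1a1 and -0.86 (SE 0.17, limma adjusted p = 8.6e-04) for Col1a2. For Col3a1 the same difference was 0.10 (SE 0.16, limma adjusted p = 0.57), which was not called, while brown minus white fat was -2.36 (SE 0.16, limma adjusted p = 2.6e-07).

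Type V chains sit inside type I fibrils and limit their width. Col5a1 was at 27.1, 35.6 and 28.2 FPKM in white fat, 5.92, 4.35 and 4.46 in brown fat, and 5.81, 4.93 and 7.16 in soleus. Col5a2 was at 30.0, 37.6 and 31.5 FPKM in white fat, 5.63, 5.14 and 5.98 in brown fat, and 7.38, 5.90 and 6.79 in soleus. Col5a3, a chain found in fewer tissues, was at 62.5, 97.7 and 49.2 FPKM in white fat, 14.0, 10.5 and 11.5 in brown fat, and 11.6, 11.7 and 13.0 in soleus. White fat lay above both other tissues for all 3 chains without overlap, and brown fat and soleus overlapped for each of them. The difference of brown fat from white fat was -2.41 (SE 0.15, limma adjusted p = 9.6e-08) for Col5a1, -2.37 (SE 0.10, limma adjusted p = 9.2e-09) for Col5a2 and -2.40 (SE 0.20, limma adjusted p = 1.3e-06) for Col5a3. Between brown fat and soleus, the difference was -0.24 (SE 0.15, limma adjusted p = 0.16) for Col5a1, -0.22 (SE 0.10, limma adjusted p = 0.07) for Col5a2 and -0.02 (SE 0.20, limma adjusted p = 0.94) for Col5a3, with no call. Without brown fat replicate 1 Col5a1 was called lower in brown fat at -0.35, and without white fat replicate 2 or soleus replicate 2 Col5a2 was, at -0.22 and -0.30. White fat replicate 2 held the highest value of all 3 type V chains.

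The rarer fibrillar chains did not follow that order. Col27a1, a fibrillar chain best known from cartilage, was at 0.338, 0.295 and 0.375 FPKM in white fat, 4.45, 4.81 and 5.17 in brown fat, and 0.161, 0.158 and 0.113 in soleus. Among the fibrillar chains it alone had its highest mean in brown fat, where Col3a1 was still far more abundant. Its brown fat libraries lay far above those of the other tissues. Brown minus white fat was 2.12 (SE 0.07, limma adjusted p = 1.6e-09) and brown fat minus soleus 2.34 (SE 0.07, limma adjusted p = 2.0e-10). Col27a1 passed the filter through brown fat alone and so had to differ from the other tissues. The other fibrillar chains were under the filter. Col11a2, a type XI chain that joins cartilage fibrils, was at 0.0431, 0.0140 and 0.0295 FPKM in white fat, 0.807, 0.331 and 0.468 in brown fat, and 1.70, 1.07 and 0.969 in soleus, and with 2 libraries at 1 FPKM or more it missed the filter by 1 library. Its partner Col11a1 stayed near 0 in both fats, with means of 0.00654 ± 0.00786 FPKM in white fat, 0.00345 ± 0.00329 in brown fat and 0.948 ± 0.207 in soleus. Both were highest in soleus, as were Col24a1, with 0.00688 ± 0.00712 FPKM in white fat, 0.00624 ± 0.00341 in brown fat and 0.418 ± 0.0114 in soleus, and the cartilage gene Col2a1, which is listed at 0 in brown fat and had 0.195 ± 0.0450 FPKM in soleus.

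The main type IV chains were higher in brown fat than in soleus, by more than any other chain of at least 10 FPKM. Col4a1 and Col4a2 assemble with each other in nearly all basement membranes. Col4a1 was at 149.9, 208 and 167 FPKM in white fat, 77.6, 67.1 and 64.8 in brown fat, and 23.6, 18.2 and 28.1 in soleus. Col4a2 was at 90.2, 127 and 98.3 FPKM in white fat, 50.8, 48.4 and 44.8 in brown fat, and 17.3, 13.4 and 19.8 in soleus. The 3 tissues did not overlap for either gene, and the order was white fat, brown fat and soleus. Brown minus white fat was -1.30 (SE 0.16, limma adjusted p = 2.6e-05) for Col4a1 and -1.10 (SE 0.15, limma adjusted p = 6.0e-05) for Col4a2. Brown fat minus soleus was 1.56 (SE 0.16, limma adjusted p = 4.6e-06) for Col4a1 and 1.47 (SE 0.15, limma adjusted p = 4.4e-06) for Col4a2, and white fat minus soleus was 2.86 (SE 0.16, limma adjusted p = 2.4e-08) for Col4a1.

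The minor type IV chains belong to basement membranes of fewer places, such as the kidney glomerulus. Col4a5 was at 4.67, 6.80 and 7.15 FPKM in white fat, 1.32, 1.48 and 1.54 in brown fat, and 1.03, 0.934 and 1.36 in soleus. Col4a6 was at 1.40, 1.80 and 1.66 FPKM in white fat, 0.0173, 0.00857 and 0.0271 in brown fat, and 0.0379, 0.0207 and 0.00946 in soleus. White fat held both genes, whereas in brown fat and soleus Col4a5 kept a level near 1 FPKM and Col4a6 was near 0. Brown fat minus soleus was 0.22 (SE 0.13, limma adjusted p = 0.15) for Col4a5, which was called without white fat replicate 1 (0.22). The ratio of Col4a5 to Col4a6, the head-to-head pair shown above, was thus 3.32, 3.79 and 4.30 in white fat, 76.2, 173 and 56.8 in brown fat, and 27.1, 45.1 and 144 in soleus, with the denominators of brown fat and soleus resting on very few fragments. Col4a3 and Col4a4 did not pass the filter. Their means were highest in white fat at 0.514 ± 0.133 FPKM in white fat and 0.225 ± 0.0157 in brown fat for Col4a3 and 0.919 ± 0.0872 FPKM in white fat and 0.193 ± 0.0447 in brown fat for Col4a4, with both at or under 0.143 FPKM in every soleus library.

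Summed endothelial markers, from cells that make basement membrane, were at 52.3 to 58.1 FPKM in soleus, 46.8 to 73.3 in white fat and 107 to 110.1 in brown fat, and 6 of 7 were called higher in brown fat than in white fat (38% of all tested genes) and 7 of 7 higher in brown fat than in soleus (52.9% of all genes). Their part in the type IV values was not tested. In bulk tissue a larger number of cells of a type cannot be told apart from more RNA per cell.

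All 5 tested type VI chains were called higher in white fat than in brown fat (34.8% of all genes) and in soleus (54.5%). Of these, Col6a5 and Col6a6 passed the filter through white fat alone. Col6a1 was at 88.2, 121 and 91.9 FPKM in white fat, 23.6, 18.3 and 18.9 in brown fat, and 26.6, 20.3 and 25.4 in soleus. Col6a2 was at 83.0, 108 and 86.5 FPKM in white fat, 25.7, 20.5 and 20.5 in brown fat, and 24.4, 18.1 and 24.4 in soleus. Col6a3, the long chain that completes the common type VI trimer and whose tail is cut off as endotrophin, was at 18.3, 30.2 and 20.7 FPKM in white fat, 10.7, 8.57 and 8.82 in brown fat, and 5.58, 4.02 and 6.27 in soleus. White fat lay above the other tissues for each of the 3 chains. Brown fat and soleus overlapped for Col6a1 and Col6a2, and for Col6a3 brown fat lay above soleus in every library. In brown fat against white fat the difference was -2.25 (SE 0.15, limma adjusted p = 1.6e-07) for Col6a1, -2.01 (SE 0.14, limma adjusted p = 3.4e-07) for Col6a2 and -1.19 (SE 0.18, limma adjusted p = 1.5e-04) for Col6a3. Brown fat minus soleus was 0.73 (SE 0.18, limma adjusted p = 0.0036) for Col6a3, a call that was lost with upper quartile, median of ratios and quantile scaling (limma adjusted p from 0.066 to 0.11).

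Of the chains that can take the place of Col6a3 in the trimer, Col6a5 and Col6a6 reached 1 FPKM in white fat alone. Col6a5 was at 8.02, 6.18 and 10.7 FPKM in white fat, 0.0210, 0.0137 and 0.0361 in brown fat, and 0.175, 0.0563 and 0.0227 in soleus. Col6a6 was at 3.12, 3.57 and 4.50 FPKM in white fat, 0.405, 0.454 and 0.516 in brown fat, and 0.350, 0.104 and 0.177 in soleus. Col6a5 was near 0 outside white fat, and Col6a6 kept a low level in brown fat. Both passed the filter through white fat alone. Brown fat minus soleus for Col6a6 was 0.27 (SE 0.11, limma adjusted p = 0.044), and this call was lost without any one of the brown fat libraries, or without soleus replicate 2 or 3 (0.21 to 0.30), and with upper quartile (0.19) or median of ratios scaling (0.17), among others. Col6a4, their neighbour on the chromosome, did not pass the filter and stayed at or under 0.0549 FPKM in every library.

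Among the FACIT collagens the 4 tested genes had different patterns. Col14a1, which binds decorin on type I fibrils, was at 14.0, 19.7 and 16.2 FPKM in white fat, 1.80, 1.15 and 1.50 in brown fat, and 1.91, 1.86 and 1.86 in soleus. White fat lay far above the others, at -2.83 (SE 0.12, limma adjusted p = 9.2e-09) for brown minus white fat. Against soleus brown fat was at -0.22 (SE 0.12, limma adjusted p = 0.12), which was called without brown fat replicate 1 (-0.31). Col16a1, a FACIT chain of connective tissue, had means of 3.24 ± 0.0591 FPKM in white fat, 0.522 ± 0.0438 in brown fat and 1.38 ± 0.233 in soleus, with white fat highest, soleus next and no overlap. Col12a1, which coats fibrils of tendon and muscle fascia, had the reverse order of the fats with means of 0.402 ± 0.0995 FPKM in white fat, 1.80 ± 0.111 in brown fat and 0.828 ± 0.221 in soleus. For Col12a1 brown minus white fat was 1.00 (SE 0.09, limma adjusted p = 3.2e-06). Col22a1, a chain of the junction between muscle and tendon, was at 0, 0.0149 and 0.00348 FPKM in white fat, 0.00422, 0 and 0 in brown fat, and 6.18, 4.74 and 5.43 in soleus. It was near 0 or listed at 0 in every fat library, and brown fat minus soleus was -2.68 (SE 0.08, limma adjusted p = 2.6e-10). Col22a1 passed the filter through soleus alone and so had to differ from the fats.

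The remaining FACIT chains were under the filter. Col9a1, Col9a2 and Col9a3 build type IX collagen of cartilage, and the highest of their means was that of Col9a2 with 0.199 ± 0.0537 FPKM in soleus. Col9a3 had 0.0317 ± 0.0133 FPKM in white fat, 0.0536 ± 0.0396 in brown fat and 0.0226 ± 0.00806 in soleus and Col9a1 0.0369 ± 0.0320 FPKM in soleus. Col9a2 is listed at 0 in all 6 fat libraries, Col9a1 in all brown fat libraries, and Col19a1 stayed near 0 throughout, with a mean of 0.0188 ± 0.00544 FPKM in soleus at its highest.

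The multiplexins, the source of endostatin (Col18a1) and a related fragment, were highest in white fat. Col15a1 was at 66.8, 86.2 and 44.7 FPKM in white fat, 16.6, 10.5 and 11.3 in brown fat, and 10.7, 7.54 and 12.7 in soleus. Col18a1 was at 25.1, 26.6 and 23.6 FPKM in white fat, 2.63, 1.90 and 2.34 in brown fat, and 2.55, 1.96 and 2.13 in soleus. White fat lay above both other tissues without overlap, and brown fat and soleus overlapped for both genes. From white fat, brown fat differed by -2.26 (SE 0.25, limma adjusted p = 1.1e-05) for Col15a1 and -2.99 (SE 0.10, limma adjusted p = 1.8e-09) for Col18a1, and white fat minus soleus was 3.02 (SE 0.10, limma adjusted p = 4.9e-10) for Col18a1. Between brown fat and soleus neither passed the test (limma adjusted p = 0.31 for Col15a1 and 0.78 for Col18a1).

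Among the short-chain, transmembrane and other collagens, Col8a1 and Col13a1 passed the filter. Col8a1, a type VIII chain of vessel walls and of the membrane under the corneal endothelium, was at 0.566, 1.59 and 0.942 FPKM in white fat, 0.886, 0.812 and 0.777 in brown fat, and 2.26, 2.78 and 2.58 in soleus. It was highest in soleus, and brown fat minus soleus was -0.95 (SE 0.15, limma adjusted p = 1.4e-04). Its partner Col8a2 was at 0.614, 0.506 and 0.679 FPKM in white fat, 0.0349, 0.00673 and 0.00709 in brown fat, and 1.08, 0.722 and 0.453 in soleus, under the filter, and near 0 in brown fat. Col13a1, a transmembrane collagen of the neuromuscular junction and other adhesion sites, had means of 0.0202 ± 0.0261 FPKM in white fat, 1.01 ± 0.363 in brown fat and 0.834 ± 0.269 in soleus. The matrix gives Col13a1 in 2 rows with the same accessions, which were summed. Brown minus white fat was 0.96 (SE 0.14, limma adjusted p = 9.7e-05) for Col13a1, and brown fat minus soleus was 0.12 (SE 0.14, limma adjusted p = 0.44). With the larger of both values taken in each library it was 0.36 and was called (limma adjusted p = 0.022), and with the single row of the higher mean, an alternative chosen after seeing the data, it was 0.56 and was called (limma adjusted p = 0.0015). The transmembrane genes Col17a1, of hemidesmosomes, and Col25a1, of neurons, and the cartilage gene Col10a1 were near 0, and their highest means were 0.0390 ± 0.0122 FPKM in soleus for Col17a1, 0.0163 ± 0.0206 FPKM in soleus for Col25a1 and 0.114 ± 0.0793 FPKM in brown fat for Col10a1. Col28a1, a collagen of nerve, had means of 0.549 ± 0.128 FPKM in white fat, 0.208 ± 0.0397 in brown fat and 0.174 ± 0.0112 in soleus.

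Brown fat had lower transcript levels than white fat of collagen types I, III, IV, V, VI, XIV, XV, XVI and XVIII, and higher levels of types XII, XIII and XXVII. Of the 24 tested members, 19 were called higher in white fat, where 34.8% of the 9913 genes tested were called, and 3 were called higher in brown fat, where 38% of all genes were. In either direction 22 of 24 were called, against 72.8% of all genes. The 3 were Col27a1, Col12a1 and Col13a1, named after their values were seen, and Col27a1 passed the filter through brown fat alone. The 2 without a call were Col8a1, which was called lower in brown fat with TPM scaling (-0.62), and Col22a1. By class, 6 of 7 tested fibrillar chains, 4 of 4 type IV chains, 5 of 5 type VI chains, 2 of 4 FACIT chains and 2 of 2 multiplexins were lower in brown fat, among them Col4a6, Col6a5 and Col6a6, which passed the filter through white fat alone. The median difference of the 24 was -1.67 log2 units, and that of all tested genes 0.03. Of the 15 members with a mean of 1 FPKM or more in every tissue, 15 were called lower in brown fat, with a median of -2.25. With TPM scaling the median of all tested genes moved to -0.50, with 1795 genes called higher in brown fat and 6133 in white fat against 3769 and 3446, and the members gave 3 and 20. The largest falls among members of at least 5 FPKM were those of Col6a5 at -3.15 (SE 0.14, limma adjusted p = 1.3e-08), Col18a1, Col14a1, Col5a1 and Col5a3, and the smallest among members of 10 FPKM or more was that of Col4a2.

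White fat stood above soleus for most chains as well. Of the 24 members, 20 were called higher in white fat (54.5% of all tested genes were) and 4 higher in soleus (29.7% of all genes), so that every tested member was called, as 84.2% of all genes were. The 4 were Col22a1, Col13a1, Col8a1 and Col12a1, also named after their values were seen. Col22a1 passed the filter through soleus alone, and Col4a6, Col6a5 and Col6a6, among the 20, through white fat alone. The difference was -2.67 (SE 0.08, limma adjusted p = 3.1e-10) for Col22a1, -0.84 (SE 0.14, limma adjusted p = 1.9e-04) for Col13a1, -0.83 (SE 0.15, limma adjusted p = 3.4e-04) for Col8a1 and -0.38 (SE 0.09, limma adjusted p = 0.0032) for Col12a1, and the last was lost with TPM scaling (limma adjusted p = 0.11). The median of the 24 was 1.99 and that of all tested genes 0.35, and the 15 members at 1 FPKM or more in every tissue were all called higher in white fat, with a median of 2.17. Over all genes, TPM scaling gave 6931 calls for white fat and 1869 for soleus, median of ratios 4189 and 4167, against 5403 and 2948, and the members gave 20 and 3 and 19 and 4. White fat minus soleus was 3.07 for Col6a5, 2.60 for Col14a1, 2.86 for Col4a1, 2.57 for Col4a2 and 3.02 for Col18a1. Type I gave the smallest differences among the abundant chains, 0.97 (SE 0.19, limma adjusted p = 6.5e-04) for Col1a1 and 1.13 (SE 0.17, limma adjusted p = 9.4e-05) for Col1a2. Col27a1 was 0.22 (SE 0.07, limma adjusted p = 0.011), a call lost with median of ratios scaling (0.15), quantile normalization (0.07) and a pseudocount of 5 (0.05). The 3 comparisons share libraries, so they are not independent of each other.

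Between brown fat and soleus fewer members were called than in the other comparisons, and the calls went in both directions. Of the 24 members, 6 were called higher in brown fat, where 52.9% of all tested genes were called, and 5 higher in soleus, where 25.6% were, and 13 had no call, with 78.5% of all genes called in either direction. The 6 were Col27a1, Col4a1, Col4a2, Col6a3, Col12a1 and Col6a6, and the 5 were Col22a1, Col8a1, Col1a2, Col1a1 and Col16a1. Col27a1 passed the filter through brown fat alone and Col22a1 through soleus alone. The median of the 24 was 0.00 and that of all tested genes 0.29. Among the 15 members at 1 FPKM or more in every tissue, 3 were higher in brown fat, 2 in soleus and 10 had no call. With the libraries scaled by the median of ratios, which moves the median of all tested genes to -0.04 and their calls from 5246 for brown fat and 2535 for soleus to 3627 and 4004, 4 members were higher in brown fat and 11 in soleus, the latter with Col5a1, Col5a2, Col6a1, Col6a2, Col14a1 and Col18a1 added. Upper quartile scaling gave 4 and 9 members, with 3986 of all tested genes called for brown fat and 3632 for soleus. Quantile normalization gave 5 and 9 members, with 4139 and 3491 of all tested genes. The calls for Col4a1, Col4a2, Col27a1 and Col12a1 in brown fat held in those scalings, as did those for Col22a1, Col8a1, Col1a1, Col1a2 and Col16a1 in soleus.

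**Figure D2:**
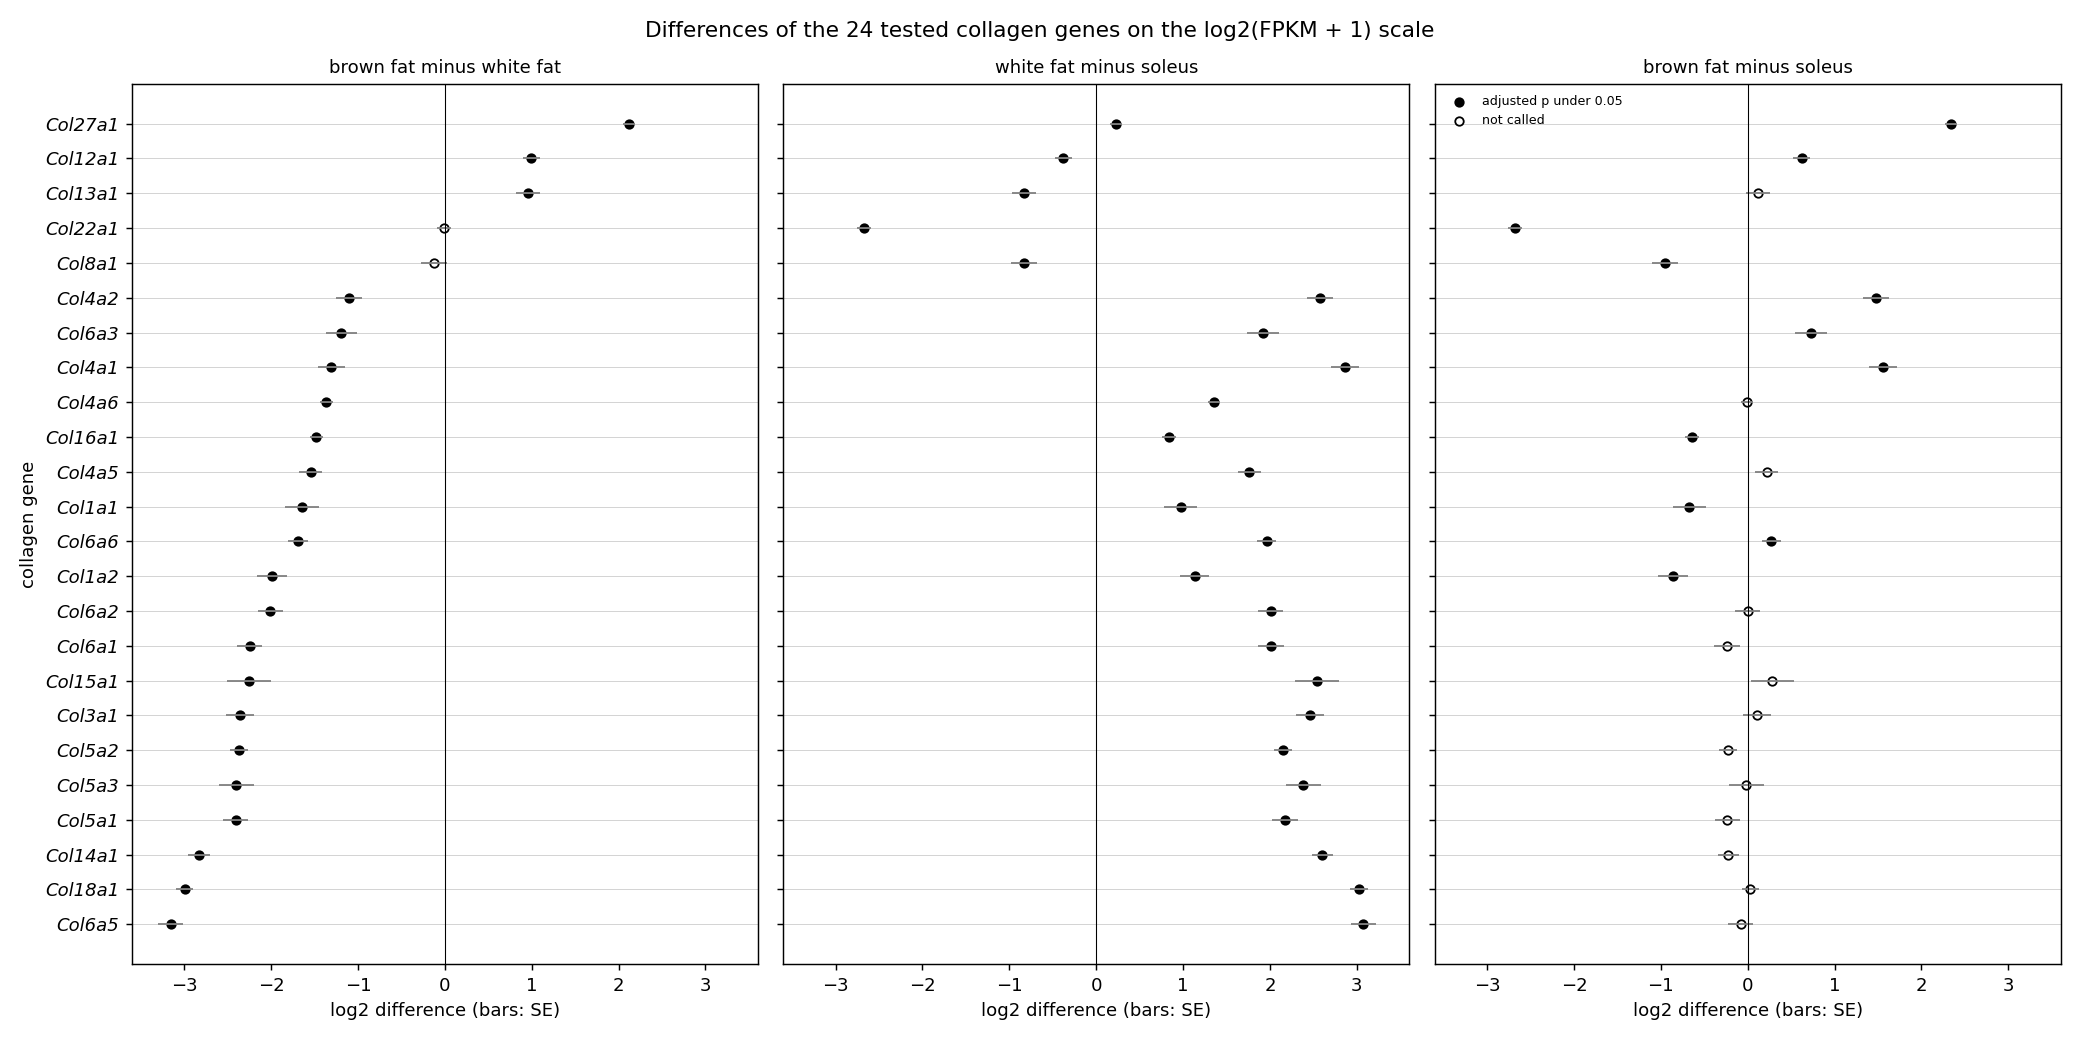
Differences of the 24 tested collagen genes in the 3 comparisons on the log2(FPKM + 1) scale (x axis, bars are the SE of the fit), with the genes on the y axis. In the panels with white fat most genes lie on its side, and in brown fat against soleus Col4a1 and Col4a2 lie towards brown fat, with Col4a5 and Col4a6 not called, and the type I chains towards soleus.

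The tissues also differed in the make-up of their collagen transcripts. The 40 genes summed to 1210, 1673 and 1302 FPKM in white fat, 409, 333 and 343 in brown fat, and 378, 275 and 346 in soleus. White fat lay far above the others, which overlapped, and its 3 libraries had 0.515% to 0.782% of all FPKM in collagen genes. The 10 members with the highest values in a library held 91.1% of the collagen sum in white fat, 92.6% in brown fat and 90.3% in soleus. Type IV made 20.4, 20.6 and 21.2% in white fat, 31.8, 35.2 and 32.6 in brown fat, and 11.2, 11.9 and 14.3 in soleus, and the tissues did not overlap. Type I made 16.7, 16.1 and 18.6% in white fat, 18.2, 17.3 and 18.6 in brown fat, and 39.8, 33.7 and 29.3 in soleus, with soleus above both fats. Type III made 27.2, 28.6 and 28.4% in white fat, 21.4, 20.1 and 20.9 in brown fat, and 18.8, 21.4 and 23.4 in soleus, highest in white fat. Type VI made 16.6, 16.1 and 16.5% in white fat, 14.8, 14.4 and 14.2 in brown fat, and 15.1, 15.5 and 16.3 in soleus, with white fat and soleus overlapping and brown fat below both. The fibril-associated collagens held 1.45, 1.40 and 1.53% in white fat, 0.993, 1.10 and 1.13 in brown fat, and 2.96, 3.22 and 2.72 in soleus, highest in soleus.

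**Figure D3:**
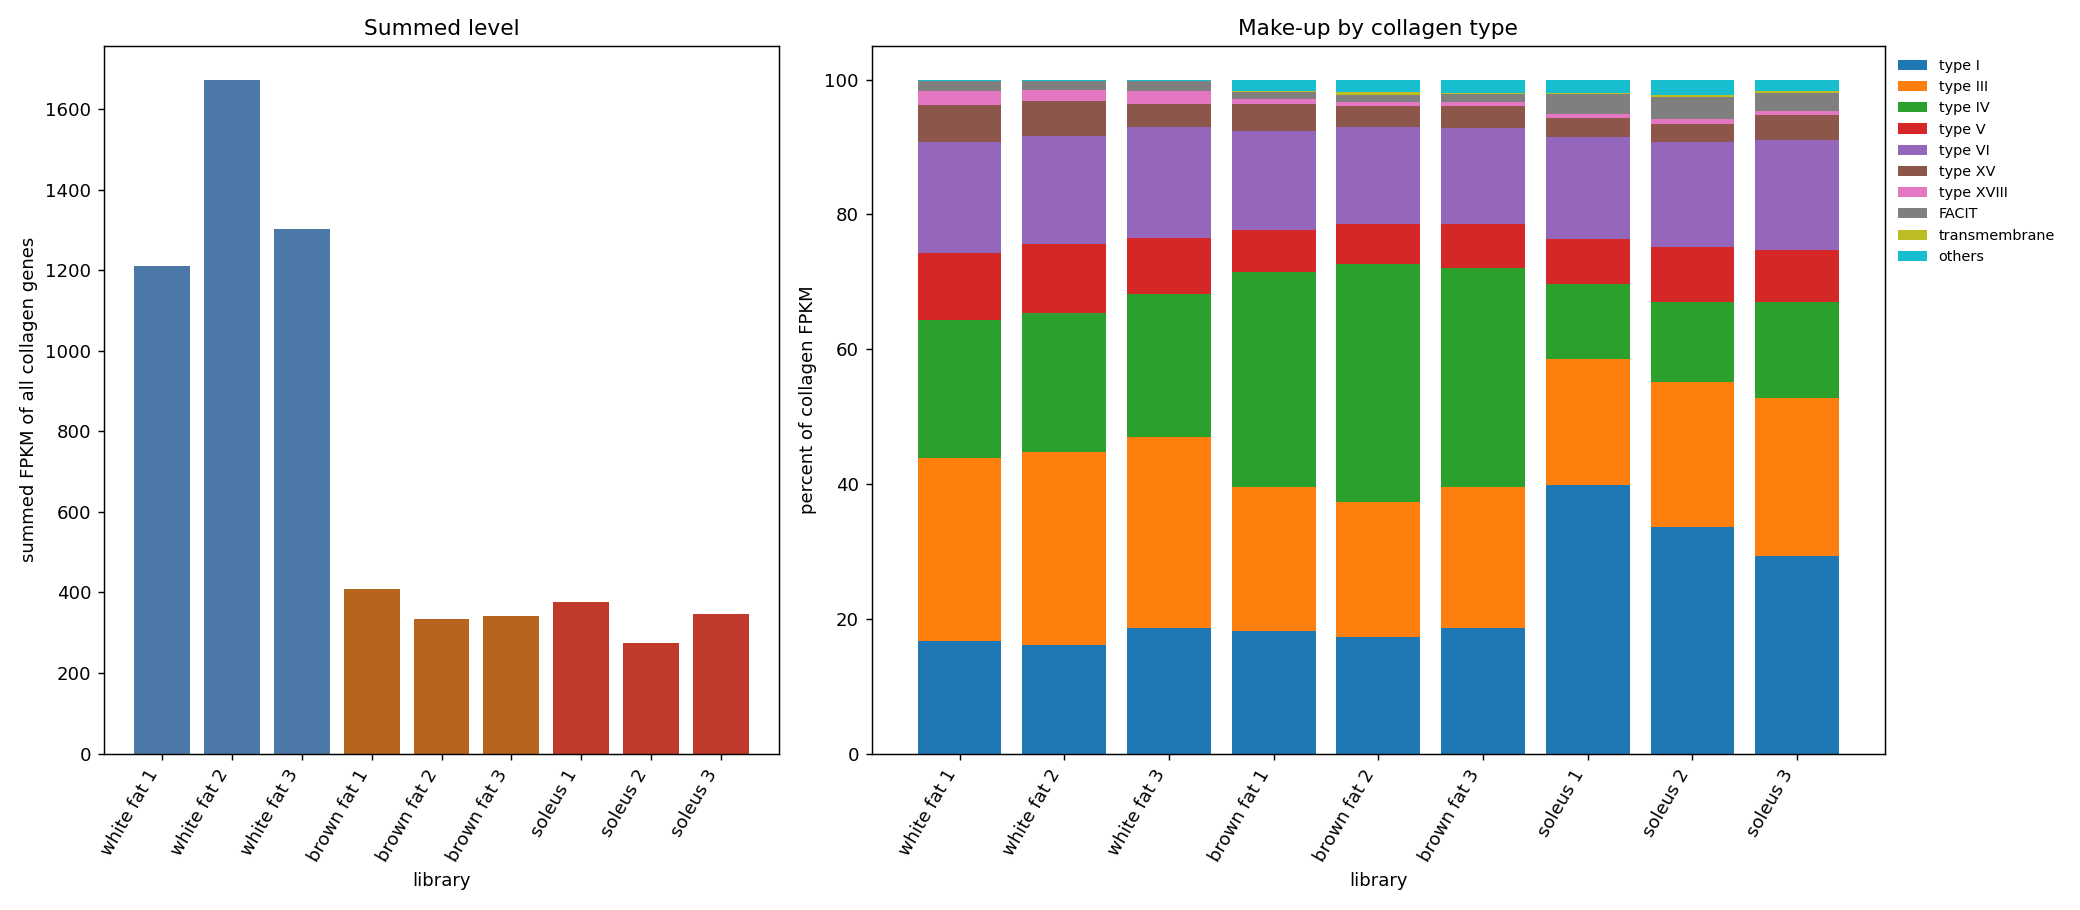
Summed FPKM of the 40 collagen genes in each library (left, bars from 0) and the percent of that sum held by each collagen type (right, stacked bars). White fat libraries sum to 1210 to 1673 FPKM, type IV takes its largest percent in brown fat and type I in soleus.

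Ratios between chains do not depend on the scaling of a library and were taken within each one. The ratio of Col3a1 to Col1a1 was 4.07, 3.95 and 3.75 in white fat, 2.40, 2.44 and 2.43 in brown fat, and 1.08, 1.47 and 1.71 in soleus. It fell from white fat through brown fat to soleus without overlap. The ratio of Col4a1 to Col3a1, basement membrane against fibril, was 0.455, 0.435 and 0.453 in white fat, 0.885, 1.00 and 0.903 in brown fat, and 0.333, 0.310 and 0.347 in soleus, highest in brown fat. The ratio of Col4a1 to Col4a2 was 1.66, 1.64 and 1.70 in white fat, 1.53, 1.39 and 1.45 in brown fat, and 1.36, 1.36 and 1.42 in soleus, slightly higher in white fat than in both other tissues. The ratio of Col1a1 to Col1a2, whose chains join 2 to 1 in the type I trimer, was under 1 in every library at 0.668, 0.813 and 0.684 in white fat, 0.966, 0.912 and 0.865 in brown fat, and 0.772, 0.762 and 0.878 in soleus. In type V the tissues overlapped, with Col5a1 to Col5a2 at 0.905, 0.947 and 0.896 in white fat, 1.05, 0.846 and 0.746 in brown fat, and 0.788, 0.835 and 1.05 in soleus. In type VI, Col6a1 to Col6a3 was 4.83, 4.02 and 4.43 in white fat, 2.20, 2.14 and 2.15 in brown fat, and 4.77, 5.04 and 4.06 in soleus. Brown fat thus had more Col6a3 for each unit of Col6a1 than the other tissues, without overlap. The ratio of Col6a1 to Col6a2 was 1.06, 1.12 and 1.06 in white fat, 0.916, 0.891 and 0.924 in brown fat, and 1.09, 1.12 and 1.04 in soleus, lowest in brown fat. Over 57 tissue comparisons of 19 such ratios, 36 gave an exact two-sided permutation p of 0.1, the smallest that 3 against 3 libraries allow, so the design could not pass 0.05 (smallest adjusted p = 0.158).

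**Figure D4:**
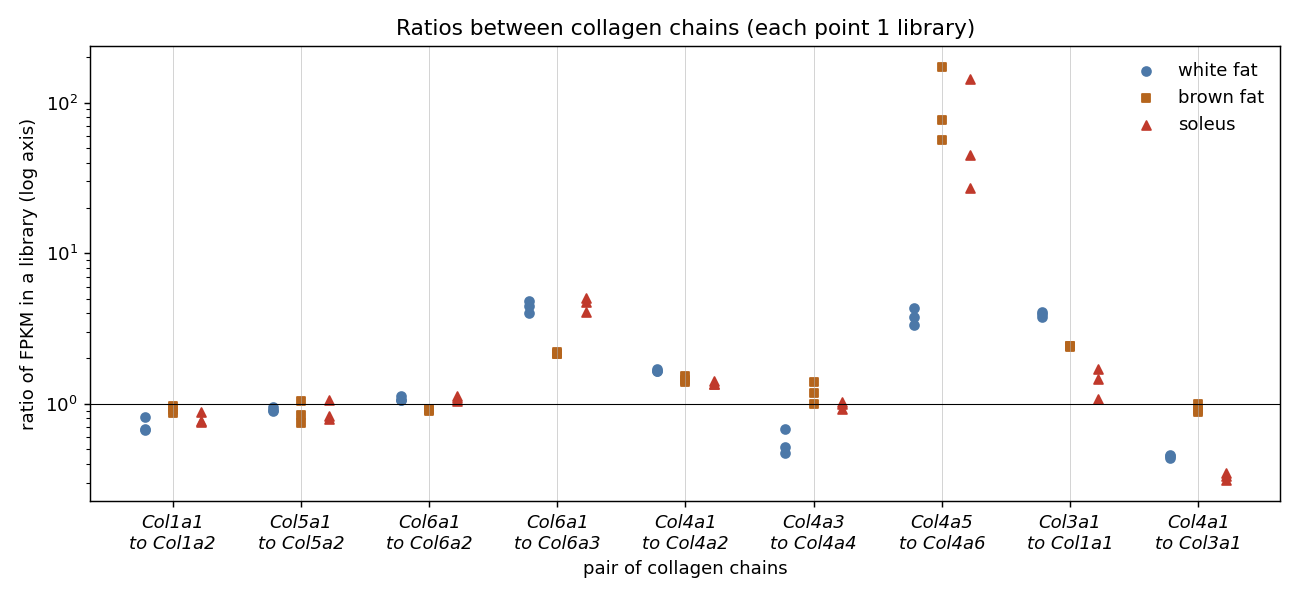
Ratios of FPKM between collagen chains in each library (y axis, log scale) by pair of chains (x axis), with tissues as colours. The ratio of Col3a1 to Col1a1 separates the 3 tissues, and that of Col6a1 to Col6a3 sets brown fat apart from white fat and soleus.

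The genes that fold, trim, join and bind collagen were taken from lists of known roles. Of the 16 tested genes for chain modification and folding, 13 fell in brown against white fat, a direction called for 34.8% of all tested genes, and 3 did not pass the test. Against soleus, 13 were higher in white fat (54.5% of all genes) and 2 lower (29.7%). Between brown fat and soleus 4 were higher in brown fat (52.9% of all genes) and 6 in soleus (25.6%). Serpinh1, the collagen chaperone of the endoplasmic reticulum and the highest of the list, had means of 179 ± 21.5 FPKM in white fat, 148 ± 11.9 in brown fat and 44.0 ± 4.59 in soleus. P4hb, a subunit of the prolyl hydroxylase that stabilises the helix, had means of 140.4 ± 6.97 FPKM in white fat, 34.1 ± 3.07 in brown fat and 72.4 ± 2.72 in soleus. Creb3l1, a transcription factor that raises collagen secretion, had means of 14.0 ± 1.94 FPKM in white fat, 2.91 ± 0.374 in brown fat and 2.29 ± 0.521 in soleus. Crtap, a member of the prolyl 3-hydroxylation complex, had means of 26.6 ± 2.31 FPKM in white fat, 15.3 ± 0.957 in brown fat and 4.17 ± 0.527 in soleus. The hydroxylase genes P3h2 and P4ha2 stood highest in soleus, with 1.33 ± 0.303 FPKM in white fat and 5.24 ± 0.302 in soleus for P3h2 and 6.42 ± 0.479 FPKM in white fat and 8.86 ± 1.29 in soleus for P4ha2.

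All 3 tested genes of propeptide cleavage were higher in white fat than in brown fat and in soleus, directions called for 34.8% and 54.5% of all genes, and 2 were higher in soleus than in brown fat (25.6% of all genes). Adamts2, which removes the N-propeptide, had means of 29.0 ± 1.13 FPKM in white fat, 2.63 ± 0.0340 in brown fat and 3.35 ± 0.499 in soleus. Bmp1, which removes the C-propeptide, had means of 14.8 ± 0.268 FPKM in white fat, 3.34 ± 0.207 in brown fat and 6.23 ± 0.333 in soleus, and Pcolce2, its enhancer, 15.4 ± 3.59 FPKM in white fat, 3.01 ± 0.269 in brown fat and 3.98 ± 0.659 in soleus. The 3 tested cross-linking oxidases were likewise called higher in white fat than in both other tissues, with the same shares of all genes. Lox had means of 12.4 ± 2.79 FPKM in white fat, 5.32 ± 0.894 in brown fat and 1.49 ± 0.384 in soleus and was the oxidase called higher in brown fat than in soleus. Loxl1 had means of 28.7 ± 1.20 FPKM in white fat, 7.60 ± 0.971 in brown fat and 7.37 ± 0.793 in soleus, and Loxl2 16.2 ± 3.33 FPKM in white fat, 4.05 ± 0.827 in brown fat and 4.98 ± 0.624 in soleus.

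Of the 9 tested small leucine-rich proteoglycans, which bind fibrils, 8 were below white fat in brown fat (34.8% of all genes) and 7 lower in brown fat than in soleus (25.6%), while Prelp alone was higher in brown fat than in soleus (52.9%). Against soleus, 6 were higher in white fat (54.5% of all genes) and 2 lower (29.7%). Dcn, decorin, had the highest level of them with 746 ± 109 FPKM in white fat, 98.2 ± 13.1 in brown fat and 205 ± 34.7 in soleus. Prelp, which links collagen to basement membrane, had means of 146 ± 11.3 FPKM in white fat, 92.5 ± 22.5 in brown fat and 8.49 ± 3.04 in soleus. Ogn, osteoglycin, had means of 90.2 ± 11.3 FPKM in white fat, 7.88 ± 1.22 in brown fat and 20.8 ± 3.97 in soleus, and Fmod, which is also a tendon gene, 18.0 ± 4.01 FPKM in white fat, 0.215 ± 0.0270 in brown fat and 30.9 ± 16.7 in soleus. Aspn, asporin, had means of 14.2 ± 3.83 FPKM in white fat, 7.39 ± 0.466 in brown fat and 25.5 ± 2.38 in soleus, and Kera is listed at 0 in both fats and had 5.15 ± 1.86 FPKM in soleus. Of the 6 tested collagen receptors, 5 were lower (34.8% of all genes) and 1 higher (38%) in brown than in white fat. Against soleus, 6 of 6 were higher in white fat (54.5% of all genes), and brown fat had 2 higher (52.9%) and 3 lower (25.6%). The one higher in brown fat was Itga1, a collagen-binding integrin, with 3.94 ± 0.746 FPKM in white fat, 12.7 ± 0.385 in brown fat and 1.49 ± 0.184 in soleus. Ddr2, a receptor kinase for fibrillar collagen, had means of 19.6 ± 1.56 FPKM in white fat, 2.44 ± 0.129 in brown fat and 2.67 ± 0.620 in soleus, and Ddr1 12.5 ± 2.98 FPKM in white fat, 1.88 ± 0.239 in brown fat and 3.63 ± 0.511 in soleus. Itgb1, the shared beta chain and the highest of the list, had 72.6 ± 5.25 FPKM in white fat, 48.3 ± 2.18 in brown fat and 39.8 ± 3.03 in soleus, and Itga11 2.22 ± 0.363 FPKM in white fat, 0.334 ± 0.0566 in brown fat and 1.07 ± 0.203 in soleus.

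Markers of cells that make collagen, or that differ between the tissues, are set beside these values, and the lists differed in their order over the tissues. Fibroblast and progenitor markers (5 genes) summed to 87.9 to 90.8 FPKM in soleus, 317 to 368 in white fat and 55.7 to 65.3 in brown fat, with 5 of 5 called higher in white than in brown fat (34.8% of all genes). Mesothelial markers (6 genes) summed to 0.251 to 2.13 FPKM in soleus, 68.7 to 102 in white fat and 1.20 to 1.42 in brown fat, where Wt1 and Bnc1 are listed at 0. Macrophage markers (7 genes) summed to 32.2 to 45.7 FPKM in soleus, 454 to 570.2 in white fat and 44.5 to 52.6 in brown fat. All 3 lists were thus highest in white fat in every library, as the summed collagens were. Their part in the collagen values was not tested. Tendon markers (7 genes) summed to 74.7 to 157 FPKM in soleus, 20.0 to 28.0 in white fat and 1.36 to 22.3 in brown fat. In the fats nearly all of this came from Fmod (15.5 to 22.6 FPKM in white fat) and Egr1, an early response gene (3.82 to 6.98 FPKM in white fat and 0.878 to 21.7 in brown fat), while Scx, Tnmd, Mkx, Thbs4 and Comp reached at most 0.206 FPKM in a fat library. Within soleus the sums were 157, 109 and 74.7 FPKM in replicates 1, 2 and 3. Col22a1 and the type I chains were also highest in soleus replicate 1. These genes were lowest in replicate 2, and the tendon sum was lowest in replicate 3. Without soleus replicate 1, brown fat minus soleus was -0.48 for Col1a1 and -0.64 for Col1a2, both called. The part of tendon in the collagen values was not tested. Cartilage markers (6 genes) summed to 1.92 to 2.77 FPKM in soleus, 0.821 to 1.75 in white fat and 0.215 to 0.309 in brown fat. In soleus 5 of the 6 had a mean under 1 FPKM, and Matn1 is listed at 0 in all libraries. Col2a1, Col9a1, Col9a2, Col11a1 and Col11a2 had their highest means in soleus, and Col9a3, Col10a1 and Col27a1 had theirs in brown fat. Schwann cell markers (5 genes) summed to 8.20 to 44.3 FPKM in soleus, 5.27 to 6.43 in white fat and 60.2 to 74.3 in brown fat. Pericyte and smooth muscle markers (6 genes) summed to 78.5 to 85.1, 106 to 118 and 123 to 139 FPKM in white fat, brown fat and soleus. Single genes of this list went both ways. In brown against white fat 3 were called higher (38% of all genes) and 2 lower (34.8%). Against soleus, brown fat had 2 higher (52.9%) and 2 lower (25.6%), and white fat 1 higher (54.5%) and 2 lower (29.7%).

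**Figure D5:**
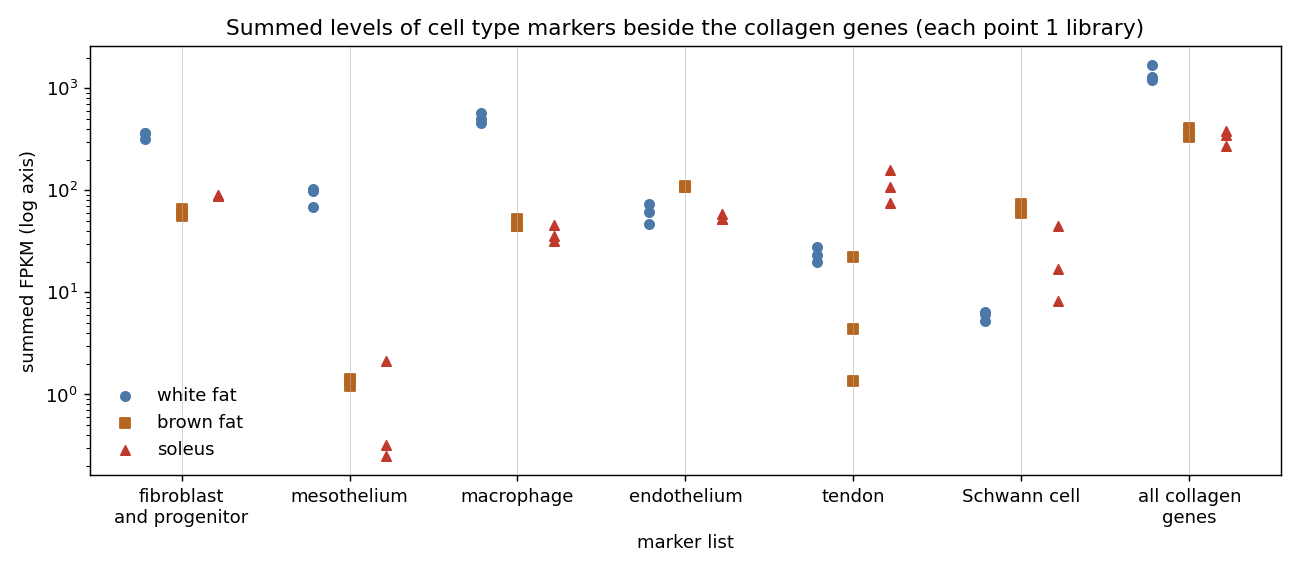
Summed FPKM of cell type marker lists and of the 40 collagen genes in each library (y axis, log scale), by list (x axis) and tissue (colour). Fibroblast, mesothelial and macrophage sums are highest in white fat, tendon sums in soleus and endothelial sums in brown fat.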

How the data were processed

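RNA-seq of white fat, brown fat and soleus was used, 3 libraries each. Per the labels' protocols, RNA was extracted with TRIzol and libraries were made with the TruSeq RNA kit. The authors deposited 1 matrix of FPKM values with 18401 rows named by RefSeq accessions, made with TopHat 1.4.1 and Cufflinks 2.0.1 on build mm9, per the submitters' processing notes. Here a RefSeq table gave symbols to 18305 rows and GENCODE to 38 more, rows with no symbol (55) or several (3) were left out, and rows of 1 symbol were summed to 17753 genes. Promoter sequences are RefSeq's, build GRCm38.p6. Exact zeros can be failed estimates.

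All 9 libraries were fitted on log2(FPKM + 1) in limma 3.58.1 (R 4.3.3, mean-variance trend, 6 residual degrees of freedom). The 9913 genes tested had 1 FPKM or more in 3 or more libraries. P-values are two-sided with Benjamini-Hochberg adjustment over all tested genes in each comparison, and a call means an adjusted p under 0.05. The script was tested on simulated data. Since read totals were not given, no count test was run and no interval or floor is given.

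The members and gene lists were chosen with earlier results of these data known. Every member is named. Values of all libraries are given for members whose mean reached 10 FPKM in a tissue and for partner chains that reached 1 FPKM. Fold changes are given for up to 5 members per direction among those of at least 5 FPKM, and for others singled out after their values were seen. From other lists come, per direction, the 2 called genes that changed most, and the gene with the highest mean. Alternatives were the pseudocount, the filter, 4 scalings, the libraries fitted, the variance trend, a replicate block, the larger row value per symbol and library, and leaving out each library. Col7a1, Col20a1, Col21a1, Col23a1 and Col26a1 were not analysed here.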

Additional observations from a re-analysis of the deposited data

How the results depend on the processing

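In 59 of the 72 results for single members the direction and the side of the threshold held in all alternatives run, and 10 of the other 13 belonged to brown fat against soleus. With no filter, all 40 members were tested. The counts rose to 5 for brown fat over white fat, 12 for soleus over brown fat and 10 for soleus over white fat. All genes tested then numbered 14538, with 4082, 3146 and 3466 called in these directions, against 3769, 2535 and 2948 of 9913. White fat had 24 members above brown fat and 24 above soleus, with 4809 and 6855 of all genes. Brown fat kept 6 members above soleus, with 5732 of all genes. With a filter of 5 FPKM, 15 members and 6743 genes in all were tested in limma. The first 3 counts were then 0 (0 also at an unadjusted p under 0.05), 2 and 0 (0 also unadjusted). All genes gave 3006, 1749 and 2295 in those directions. Brown fat had 3 members above soleus, with 3782 of all genes. White fat had 15 members above brown fat and 15 above soleus, with 2062 and 3511 of all genes. Members higher in soleus than in brown fat numbered 9 with upper quartile, 11 with median of ratios and 9 with quantile scaling, against 5. Over all 9913 tested genes that direction rose as well, to 3632, 4004 and 3491, against 2535. Median of ratios scaling reversed Col18a1 (-0.28, adjusted p = 0.030) and Col6a2 (-0.43, adjusted p = 0.019) in brown fat against soleus, both without a call in the fit reported. Scaling shifted the median of all tested genes: TPM moved it from 0.03 to -0.50 in brown against white fat and from 0.35 to 0.93 in white fat against soleus, and median of ratios moved the latter to 0.01. The median of the members in brown against white fat was -2.62 with TPM. Taking the larger row value of a symbol in each library, in place of the sum, took the transmembrane percent of the collagen sum in soleus from 0.273% to 0.183%. The single row of the highest mean, an alternative chosen after seeing the data, took it to 0.115%. Both gave 7 members higher in brown fat than in soleus, with Col13a1 added.

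Leaving out 1 library at a time gave 5 to 7 members higher in brown fat than in soleus and 5 to 7 higher in soleus, and held the other counts at 3, 19, 20 and 4. Libraries with the same replicate number had correlations of their deviations from the tissue means of -0.22 to 0.08, and those with different numbers -0.19 to 0.36. With so few libraries per tissue, these values cannot tell whether same-numbered libraries share a mouse. With the replicate number as a block, 5 members were higher in brown fat and 5 in soleus, Col6a6 losing its call (adjusted p = 0.054), with 3 and 19 in brown against white fat and 20 and 4 in white fat against soleus. Read depth is unknown, so differences of members under 1 FPKM, 15 of the 40 in every tissue, could not be weighed against counting error.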

Other observations

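Within a tissue many of the collagen genes were highest or lowest in the same library. The share of all tested genes that did so was not counted, so this is not shown to be particular to collagens. In white fat, 18 of the 24 tested members were highest in replicate 2 and 18 lowest in replicate 1, and replicate 2 had the lowest relative depth. In brown fat, 15 were highest in replicate 1 and 14 lowest in replicate 2. In soleus, 14 were highest in replicate 1 and 17 lowest in replicate 2, the library with the largest summed FPKM. The members of a library share its scaling, so these counts are a description.

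The multiplexins also differed in their balance. The ratio of Col15a1 to Col18a1 was 2.66, 3.24 and 1.89 in white fat, 6.33, 5.50 and 4.83 in brown fat, and 4.21, 3.85 and 5.97 in soleus, lower in white fat than in either other tissue without overlap. The ratio of Col5a3 to Col5a1 was 2.31, 2.74 and 1.74 in white fat, 2.36, 2.42 and 2.57 in brown fat, and 1.99, 2.37 and 1.81 in soleus, with overlap between white and brown fat. The ratio of Col3a1 to Col5a2, neighbouring genes, was 11.0, 12.7 and 11.7 in white fat, 15.6, 13.0 and 12.0 in brown fat, and 9.60, 9.97 and 11.9 in soleus. The ratio of Col8a1 to Col8a2 was 0.921, 3.13 and 1.39 in white fat, 25.4, 121 and 109.6 in brown fat, and 2.08, 3.85 and 5.69 in soleus, where the brown fat denominators are close to 0.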
